A study of Homo sapiens with 7 samples.

Results

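The genes described here are 10 RNA-binding proteins that control alternative splicing in heart muscle: RBM20, RBM24, RBFOX1, RBFOX2, MBNL1, MBNL2, CELF1, CELF2, QKI and PTBP1. They were taken by symbol from a deposited expression table of 60234 genes, and all 10 were found. The RNA came from cardiomyocytes made from human induced pluripotent stem cells of WTC-11, an established line, after 35 days of maturation. Cultures received an antisense oligonucleotide (ASO) at 2 uM for 96 h with passive uptake, either a scrambled sequence (3 libraries) or one directed at MYH7B (4 libraries), and poly-A RNA was sequenced. MYH7B encodes a myosin heavy chain, and the study's title treats its transcript as a regulatory noncoding RNA. Every library shares the one stem cell line and the same labelled maturation day, dose and treatment time. No label says whether libraries of a group came from separate cultures, so the p-values measure the spread between libraries, which may be technical. The values of MYH7B ASO replicate 1 do not line up with the gene names in the table, so the main comparison uses MYH7B ASO replicates 2, 3 and 4 against the 3 scrambled libraries. That column, put back into the gene order of GENCODE 29, is given beside it.

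Alternative splicing joins the exons of one gene in different combinations, and these proteins decide it by binding short motifs in the unspliced RNA, where their position relative to an exon sets whether the exon is kept or skipped. RBM20 represses exons of titin and of calcium-handling transcripts, and its mutations cause dilated cardiomyopathy. MBNL and CELF proteins act in opposite directions on many exons that switch around birth, RBFOX and QKI proteins regulate cytoskeletal and sarcomeric transcripts, and PTBP1 represses muscle and neuronal exons. The values below are levels of each gene's RNA summed over its transcripts, so they say how much of a regulator's RNA was present and nothing about which exons were used.

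MYH7B, the target, was at 22.97, 36.5 and 25.1 TPM (transcripts per 1000000, a level corrected for transcript length) in the scrambled libraries and at 9.30, 5.65 and 6.31 TPM in MYH7B ASO replicates 2 to 4. MYH7B fell, with a log2 fold change of -1.85 (limma adjusted p = 0.0109). The reordered replicate 1 had 1.29 TPM, and with it the log2 fold change was -2.30 and the call was lost (limma adjusted p = 0.0525). The mitochondrial genome supplied 27.4% to 33.6% of TPM in these 6 libraries and 17.2% in MYH7B ASO replicate 1. All 11 cardiomyocyte markers were expressed, with summed levels of 10900 to 12023 TPM in the scrambled and 9090 to 11420 TPM in the MYH7B ASO libraries. Without overlap of the groups, 5 of the 11 were lower and 1 higher, and none was called. Over all tested genes, 14.1% were lower and 7.11% higher without overlap. Fibroblast markers were present too, with none of the 10 at 0, and their sum was 2922 to 5267 TPM in the scrambled against 1373 to 2109 TPM in the MYH7B ASO libraries. Most of the fibroblast sum came from COL1A1, COL3A1 and COL1A2, with scrambled means of 1667, 1099 and 765 TPM. Of these 10 markers, 6 were lower and 2 higher without overlap of the groups, and COL1A2 and LUM fell (limma adjusted p = 0.0343 and 0.0489). PDGFRA was among the higher ones, with a log2 fold change of 0.60 (limma adjusted p = 0.152). The sum of 6 smooth muscle markers was 962 to 1361 TPM against 576 to 752 TPM, and MYH11 among them fell (limma adjusted p = 0.00599). In the reordered replicate 1 the fibroblast sum was 4169 TPM and the smooth muscle sum 1110 TPM, both inside the scrambled range. The cardiomyocyte sum there was 8186 TPM, below that of every other library. With 7 libraries COL1A2 and LUM overlapped between the groups and were not called (limma adjusted p = 0.207 and 0.391), while MYH11 was (limma adjusted p = 0.0049). Endothelial markers summed to 36.5 to 48.4 TPM and 36.5 to 55.5 TPM, with VWF under 1 TPM in every library, and neuronal markers to 26.9 to 36.1 TPM and 21.9 to 33.2 TPM, with 78.2 TPM in replicate 1. STMN2 was the one neuronal marker called, with a log2 fold change of -1.78 (limma adjusted p = 0.0341, and 0.0314 with 7 libraries). These marker genes are named after their values were seen. In bulk RNA, fewer cells of a type and less RNA per cell cannot be told apart.

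None of the splicing regulators passed the test across all genes, but 5 of the 9 that could be tested were lower in every MYH7B ASO library than in every scrambled library. These were RBFOX2, MBNL2, RBM20, MBNL1 and QKI, with log2 fold changes between -0.54 and -0.43. RBM24, CELF1 and CELF2 stayed within the spread of the libraries, as did PTBP1. A gene was tested if its mean was at least 1 TPM, which left out RBFOX1, and was called at an adjusted p under 0.05 in limma, a linear model of log2(TPM + 1) that shares variance between genes. The background was 1.66% of 15988 tested genes called in either direction, and 14.1% of them were lower and 7.11% higher without overlap of the groups. At an unadjusted p under 0.05 in limma, the same 5 members were lower, against 10.6% of all tested genes. This number of members was smaller in most other settings, as given at the end. Log2 fold changes were below 0 for 8 of the 9, against 54.8% of all tested genes. The median log2 fold change was -0.43 over the 9 members and -0.04 over all tested genes. The fibroblast and smooth muscle marker sums given above also did not overlap between the groups of these 6 libraries. With replicate 1 included these sums overlapped. Among the 11 cardiomyocyte markers, 5 were lower and 1 higher without overlap in the 6 libraries. The part of these cell types in the lower levels was not tested.

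**Figure D1:**
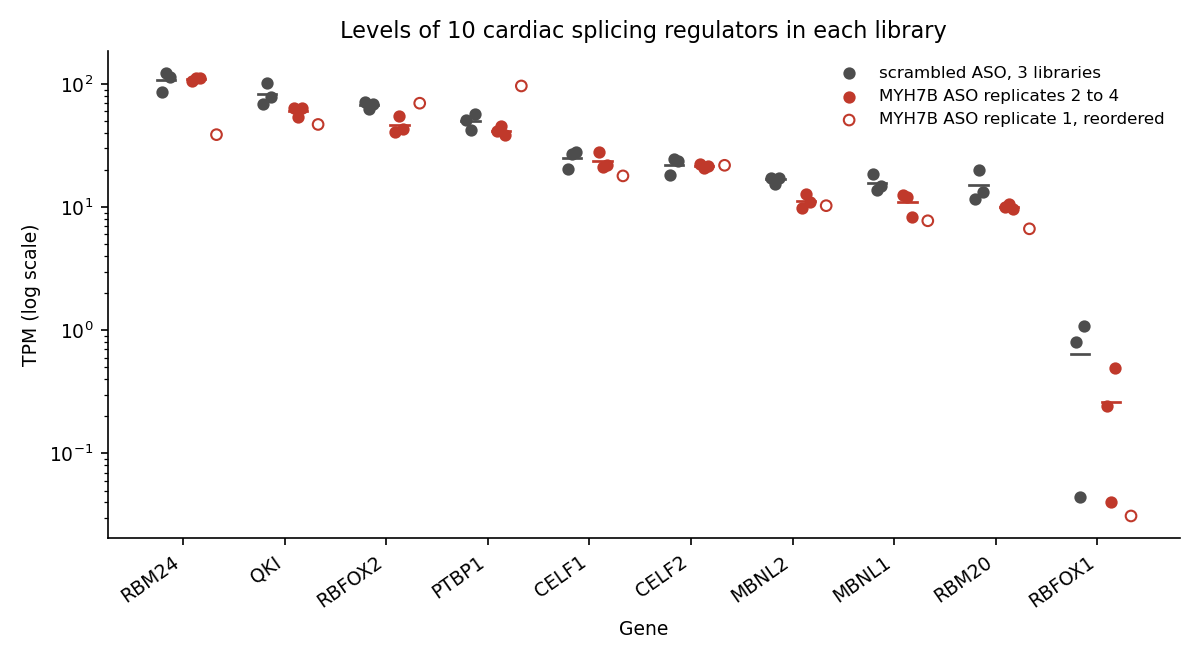
Level of each splicing regulator in TPM on a log scale, by gene from the highest to the lowest scrambled ASO mean. Filled points are single libraries, short lines are the means of 3 libraries, and open circles are MYH7B ASO replicate 1 after reordering, which stands apart for RBM24 (38.7 TPM) and PTBP1 (96.3 TPM).

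In the scrambled libraries the 10 genes spanned more than 100 TPM to under 1 TPM. RBM24 had the highest mean, 108 ± 19.1 TPM (SD, n = 3), followed by QKI with 82.4 ± 16.7 TPM and RBFOX2 with 67.3 ± 4.21 TPM, and the ranges of neighbours in this order overlapped. PTBP1 came next with 50.1 ± 7.04 TPM, below RBFOX2 and above CELF1 with no overlap. CELF1 (25.1 ± 4.26 TPM) and CELF2 (22.04 ± 3.34 TPM) overlapped. CELF2 lay just above MBNL2 with no overlap, but its lowest library was below the highest of MBNL1 and of RBM20. The means of MBNL2, MBNL1 and RBM20 were 16.8, 15.7 and 15.1 TPM, with overlapping ranges. RBFOX1 was the lowest at 0.644 ± 0.540 TPM. The summed level of the 10 genes was 364, 430 and 416 TPM with the scrambled ASO and 334, 345 and 330 TPM in MYH7B ASO replicates 2 to 4. The sums therefore did not overlap.

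RBM20 and RBM24 are the 2 members best known as muscle regulators, and their values are shown with the stretch of DNA just before each start. RBM20 (ENSG00000203867.8, chromosome 10, 110644397 to 110839469 on GRCh38) and RBM24 (ENSG00000112183.15, chromosome 6, 17281346 to 17293875) lie on different chromosomes and share no promoter. The 250 bases before the RefSeq start are given 5′ to 3′ on the gene's strand, from build GRCh38.p14, with capitals marking GGGCGG, the core of a GC box, on either strand. RBM20 is read from chr10:110644086-110644335 and RBM24 from chr6:17281814-17282063, both on the plus strand. The RBM24 window lies inside the GENCODE 29 span given above, whose first start is further upstream.
RBM20: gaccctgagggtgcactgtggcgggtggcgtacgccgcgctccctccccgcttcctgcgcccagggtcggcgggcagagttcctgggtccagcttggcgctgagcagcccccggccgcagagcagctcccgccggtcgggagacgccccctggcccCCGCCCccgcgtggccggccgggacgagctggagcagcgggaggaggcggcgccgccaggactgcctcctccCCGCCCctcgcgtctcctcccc
RBM24: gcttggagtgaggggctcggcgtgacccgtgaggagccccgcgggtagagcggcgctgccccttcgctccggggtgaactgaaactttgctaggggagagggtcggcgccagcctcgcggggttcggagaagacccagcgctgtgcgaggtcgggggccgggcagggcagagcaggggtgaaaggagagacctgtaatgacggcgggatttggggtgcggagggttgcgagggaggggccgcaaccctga
The RBM20 window held 2 such matches and 29 CpG pairs, and the RBM24 window held 0 and 23, against a median of 11 CpG over 35116 windows of this length. At least 23 CpG were found in 25.8% of those windows. GGGCGG was found in 42.6% of all windows and in 13 of the 29 member windows. Those were windows of 6 of the 8 members with entries. CATTCC, the letters of the muscle element that TEAD factors bind, was searched on both strands as well. It was in 11.9% of all windows and in none of the 29 windows of the 8 members. TATAAA was in 10.7% of all windows and in 1 member window, of CELF2, and CCAAT in 32.0% and in 8 member windows, of 5 members. These are letters in a window, and RBFOX2 and QKI were not searched.

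RBM20, the regulator of titin splicing, was at 11.7, 20.2 and 13.4 TPM in the scrambled libraries and at 10.02, 10.6 and 9.74 TPM in MYH7B ASO replicates 2 to 4. Every MYH7B ASO library was below the lowest scrambled one, but by a small margin, and scrambled ASO replicate 2 was well above the other two. The log2 fold change was -0.50 with a 95% confidence interval from -0.99 to -0.01 (limma adjusted p = 0.315). Leaving out that highest scrambled library gave -0.28. With the reordered MYH7B ASO replicate 1, at 6.67 TPM, it was -0.63 (limma adjusted p = 0.284).

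RBM24, a regulator that promotes muscle-specific exons during heart development, was at 86.5, 123 and 115 TPM with the scrambled ASO and at 105, 113 and 112 TPM in MYH7B ASO replicates 2 to 4. The MYH7B ASO values lay inside the scrambled range. Their log2 fold change was 0.04 with a 95% confidence interval from -0.32 to 0.40 (limma adjusted p = 0.930). MYH7B ASO replicate 1 had 38.7 TPM, below all the others, and turned the estimate to -0.33 with an interval from -1.14 to 0.48. Neither interval excludes a lower or a higher level of RBM24.

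RBFOX2 (ENSG00000100320.23, chromosome 22, 35738736 to 36028425), which binds UGCAUG and is the main RBFOX protein outside neurons, was at 70.8, 62.6 and 68.4 TPM in the scrambled libraries. MYH7B ASO replicates 2 to 4 had 40.4, 55.4 and 43.4 TPM, with no overlap. The mean went from 67.3 ± 4.21 to 46.4 ± 7.94 TPM (SD, n = 3 each), a log2 fold change of -0.54 with a standard error of 0.16. Its limma adjusted p of 0.154 was the lowest among the members. MYH7B ASO replicate 1 had 69.7 TPM, inside the scrambled range, and with it the log2 fold change was -0.39 (limma adjusted p = 0.446). The separation of the groups for RBFOX2 thus depended on that library being left out.

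RBFOX1 (ENSG00000078328.21, chromosome 16, 5239802 to 7713338), the paralog best known from neurons and postnatal heart, was at 0.797, 0.0444 and 1.09 TPM with the scrambled ASO. MYH7B ASO replicates 2 to 4 had 0.241, 0.0404 and 0.497 TPM. Both groups spanned a wide range at very low levels and overlapped, so no difference could be resolved. The main comparison did not test RBFOX1. With no filter on low values all 10 members were tested, and none was called. In every library RBFOX1 was far below RBFOX2.

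MBNL1 (ENSG00000152601.17, chromosome 3, 152243828 to 152465780) and MBNL2 (ENSG00000139793.18, chromosome 13, 97221434 to 97394120) promote the adult splicing pattern, and their sequestration underlies myotonic dystrophy. MBNL2 was at 17.4, 15.5 and 17.4 TPM in the scrambled libraries and at 9.92, 12.8 and 10.9 TPM in MYH7B ASO replicates 2 to 4. The groups did not overlap, and the log2 fold change was -0.54 with a 95% confidence interval from -0.92 to -0.17 (limma adjusted p = 0.163). MBNL1 was at 18.5, 13.8 and 14.8 TPM in the scrambled libraries and at 12.5, 12.0 and 8.31 TPM in MYH7B ASO replicates 2 to 4, again with no overlap. Its log2 fold change was -0.49 with an interval from -0.96 to -0.02 (limma adjusted p = 0.302), and -0.32 without MYH7B ASO replicate 4. MYH7B ASO replicate 1 had 10.3 TPM of MBNL2 and 7.75 TPM of MBNL1, also below every scrambled library.

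CELF1 (ENSG00000149187.18, chromosome 11, 47465933 to 47565569) and CELF2 (ENSG00000048740.18, chromosome 10, 10798397 to 11336675) favour embryonic splicing patterns and are antagonists of MBNL proteins on many exons. CELF1 was at 20.3, 26.9 and 28.2 TPM with the scrambled ASO and at 27.9, 21.1 and 21.8 TPM in MYH7B ASO replicates 2 to 4. CELF2 was at 18.2, 24.4 and 23.5 TPM and at 22.4, 20.9 and 21.5 TPM. Both genes overlapped between the groups. The log2 fold changes were -0.08 for CELF1, with a 95% confidence interval from -0.51 to 0.34 (limma adjusted p = 0.873), and -0.02 for CELF2, from -0.39 to 0.35 (limma adjusted p = 0.972). The sign for CELF2 turned positive under other scalings of the libraries. CELF1 overlaps NDUFS3 and PTPMT1 on the opposite strand, at means of 82.7 and 16.6 TPM in the scrambled libraries. Their means were higher in MYH7B ASO replicates 2 to 4, at 115.5 and 20.1 TPM. No source used here says that strand was used in counting, so reads in the shared stretches are uncertain.

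QKI (ENSG00000112531.17, chromosome 6, 163414000 to 163578596), an RNA-binding protein that recognises ACUAA and acts in both splicing and circular RNA formation, was at 68.3, 101 and 77.9 TPM in the scrambled libraries. MYH7B ASO replicates 2 to 4 had 64.04, 53.7 and 63.7 TPM, just below the lowest scrambled value in the closest case. The log2 fold change was -0.43 with a 95% confidence interval from -0.82 to -0.03 (limma adjusted p = 0.293). Without scrambled ASO replicate 2, the highest library, it was -0.27. MYH7B ASO replicate 1 had 46.9 TPM, and with it the log2 fold change was -0.51 (limma adjusted p = 0.284).

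PTBP1 (ENSG00000011304.20, chromosome 19, 797075 to 812327), the polypyrimidine tract binding protein, was at 51.03, 42.6 and 56.6 TPM with the scrambled ASO and at 41.5, 45.6 and 38.3 TPM in MYH7B ASO replicates 2 to 4. The groups overlapped. The log2 fold change was -0.25 with a 95% confidence interval from -0.61 to 0.11 (limma adjusted p = 0.499). MYH7B ASO replicate 1 had 96.3 TPM, the highest of all 7 libraries, and turned the estimate to 0.05.

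**Figure D2:**
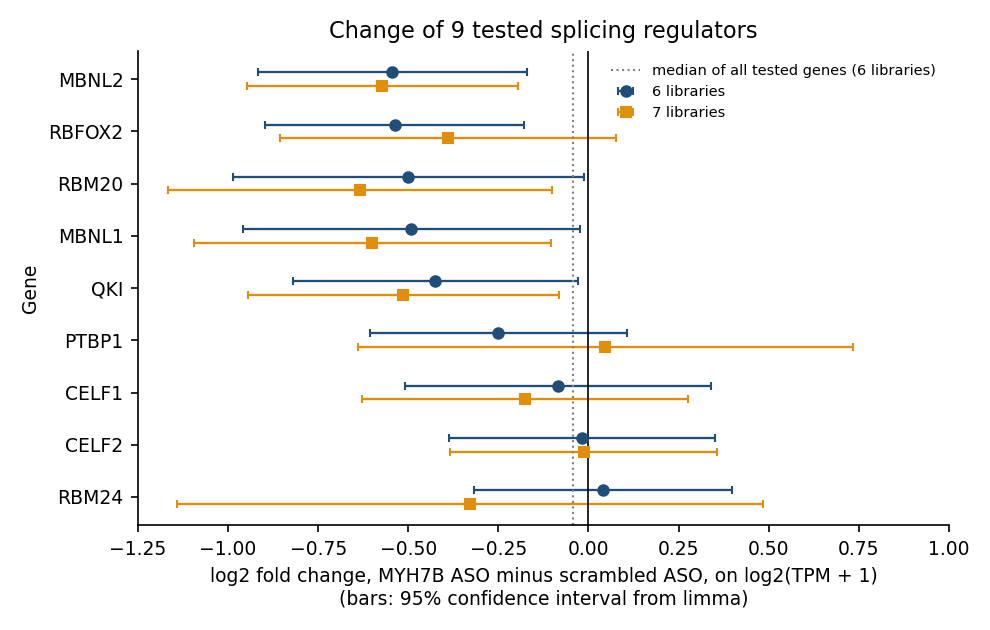
Log2 fold change of each tested splicing regulator on the log2(TPM + 1) scale with its 95% confidence interval from limma, for 6 libraries (circles) and for 7 libraries with the reordered column (squares). MBNL2, RBM20, MBNL1 and QKI lie left of 0 with both sets of libraries, RBFOX2 has an interval that reaches past 0 with 7, and RBM24 and PTBP1 change side.

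With all 7 libraries the counts were similar but named a smaller set. MBNL2, RBM20, MBNL1 and QKI were then lower without overlap, 4 of 9 against a background of 10.2% of 15822 tested genes, and 0 of 9 were called against 1.07%. RBM24 and PTBP1 had far wider intervals than with 6 libraries with replicate 1 in the fit.

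The authors' deposited table, made from the same experiment and so no independent evidence, has no adjusted p-value under 0.05 for any member, where 8.71% of its 15527 genes with an adjusted p-value have one. RBFOX2 came closest in the authors' deposited table, at -0.42 on its shrunken log2 scale (adjusted p-value 0.0502). MBNL2, RBM20, MBNL1 and QKI had -0.43, -0.43, -0.39 and -0.33 there, and the adjusted p-values of the authors' deposited table were 0.115, 0.131, 0.192 and 0.232. These 5 have unadjusted p-values under 0.05 in the authors' deposited table, as do 7.93% of its 25348 genes with a p-value in the lower direction. That set is wider than the 15527 and includes low genes without an adjusted p-value, so its share is an imperfect match for these 5. RBM24, CELF2, CELF1 and PTBP1 had 0.09, 0.04, -0.02 and -0.18 in the authors' deposited table. It gives RBFOX1 -0.15 with an unadjusted p-value of 0.368, and no adjusted p-value.

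Ratios between regulators within a library do not depend on how libraries were scaled, and 6 were compared. The log2 ratio of RBM24 to RBM20 was 2.88, 2.61 and 3.10 in the scrambled libraries and 3.39, 3.41 and 3.52 in MYH7B ASO replicates 2 to 4. The groups did not overlap, with a difference of 0.58 (2-sided exact permutation test, p = 0.1, the smallest that 3 against 3 allows, and 0.3 adjusted over the 6 ratios). The reordered replicate 1 was at 2.54, below all of them, and the difference with it was 0.35 (exact permutation p = 0.314).

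PTBP2, the paralog that is restrained by PTBP1, had a log2 ratio to PTBP1 of -1.83, -2.04 and -1.69 in the scrambled libraries and -1.23, -1.61 and -1.47 in MYH7B ASO replicates 2 to 4. This difference of 0.42 also had no overlap (exact permutation test, p = 0.1 and 0.3 adjusted), but replicate 1 was at -3.72 and turned it to -0.15.

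The ratio of MBNL1 to CELF1, which sets an adult-type regulator against an embryonic-type one, was -0.13, -0.97 and -0.93 in the scrambled libraries on the log2 scale. MYH7B ASO replicates 2 to 4 had -1.16, -0.82 and -1.39, an overlapping range with a difference of -0.44 (exact permutation p = 0.3, 0.6 adjusted). Without scrambled ASO replicate 1, the highest library, the difference was -0.17. MBNL1 to MBNL2 differed by 0.05 and CELF1 to CELF2 by -0.07, with exact permutation p-values of 0.8 and 0.6. RBFOX1 to RBFOX2 differed by -0.45 (exact permutation p = 0.8), with a range of more than 4 log2 units inside the scrambled group.

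**Figure D3:**
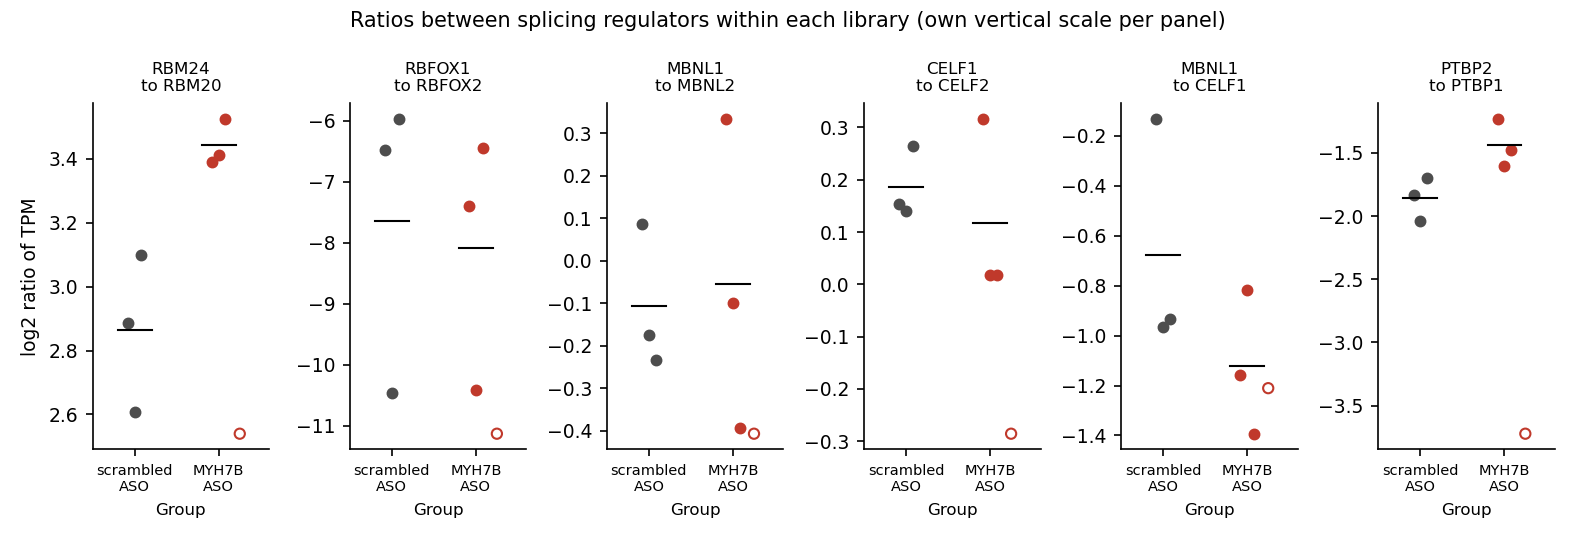
Log2 ratio of TPM between pairs of regulators in each library, with a vertical scale of its own in each panel. Filled points are the 3 scrambled and 3 MYH7B ASO libraries, lines are group means, and open circles are the reordered MYH7B ASO replicate 1. The groups are separate without replicate 1 for RBM24 to RBM20 and for PTBP2 to PTBP1.

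The annotated spans of the members differ widely. The 5 members whose groups did not overlap span 164.6 to 289.7 kb, from QKI to RBFOX2, with MBNL2 at 172.7, RBM20 at 195.1 and MBNL1 at 222 kb. RBM24 and PTBP1 span 12.5 and 15.3 kb, CELF1 spans 99.6 kb, and CELF2, which was level between the groups, spans 538.3 kb. Whether span has a part in the lower levels was not tested.

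The spread within groups also differed. RBM20 had a coefficient of variation of 29.7% over the scrambled libraries and 4.23% over MYH7B ASO replicates 2 to 4, while RBFOX2 went the other way, from 6.25% to 17.1%. With 3 libraries a group these are descriptions.

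To place the RBM20 and RBM24 profiles, the tested genes with the smallest root mean square difference in centred log2(TPM + 1) over the 6 libraries were looked up. For RBM20 they were TDRKH, CCDC26 and AL009179.1, with differences of 0.07, 0.07 and 0.08. For RBM24 they were ZFYVE16, TPTEP1 and PLXND1, with 0.04, 0.04 and 0.05. All 6 share libraries with the gene they resemble, and none was called in limma (adjusted p from 0.423 to 0.991).

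Among 13 paralogs and relatives of the members, 8 symbols reached the minimum level and 0 passed, against 1.66% of all tested genes. PTBP3, a PTBP1 paralog, was at 12.4, 8.26 and 8.83 TPM in the scrambled libraries and at 4.61, 5.20 and 4.02 TPM in MYH7B ASO replicates 2 to 4. The groups did not overlap and the log2 fold change was -0.93 with a 95% confidence interval from -1.41 to -0.46 (limma adjusted p = 0.0763). In the authors' deposited table PTBP3 had -0.83 with an adjusted p-value of 0.00117. PTBP2 was at 14.1 ± 3.55 and 15.5 ± 1.99 TPM (SD, n = 3 each), a log2 fold change of 0.15 within the spread.

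RBM38, the closest relative of RBM24, was at 66.8 ± 1.57 and 66.7 ± 13.8 TPM (SD, n = 3 each), a log2 fold change of -0.02 whose sign turned under other scalings. MBNL3, CELF4 and KHDRBS3 were low, with means of 1.87, 4.28 and 2.66 TPM in the scrambled libraries and log2 fold changes of -0.25, -0.34 and -0.40. KHDRBS1, which like QKI belongs to the STAR family, differed by 0.11. MATR3 was listed under 2 gene identifiers that may share reads, with changes of 0.17 and -0.31, so its level is uncertain. None of these log2 fold changes exceeded the spread of the libraries in limma (adjusted p from 0.596 to 0.967).

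**Figure D4:**
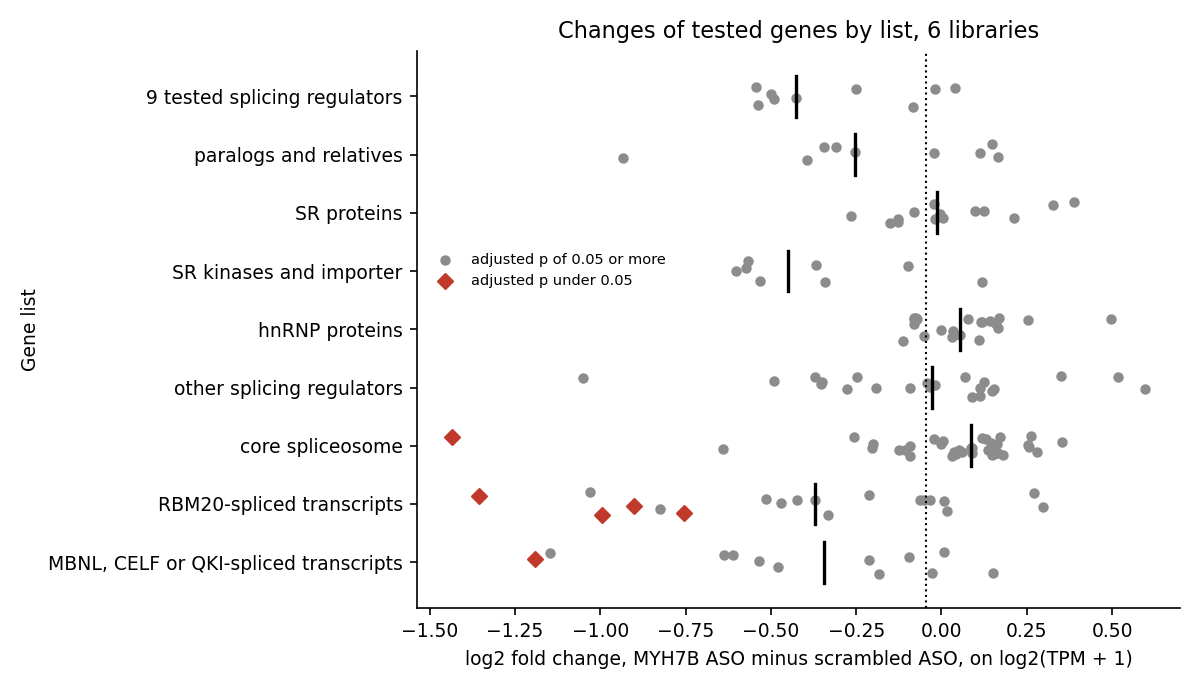
Log2 fold changes on the log2(TPM + 1) scale for tested genes of each list, with a vertical bar at each list's median and a dotted line at the median of all tested genes (-0.04). Diamonds are genes with a limma adjusted p under 0.05, which are 1 core spliceosome gene, 4 RBM20-spliced transcripts and 1 transcript spliced by MBNL, CELF or QKI proteins.

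The general splicing machinery was close to level. None of 14 SR proteins, which bind exonic enhancers, and none of 21 hnRNP proteins, which often silence exons, was called, with median log2 fold changes of -0.01 and 0.05. Across 36 core spliceosome genes the median was 0.09, and SNRNP40, a protein of the U5 particle, was the single call. Of all tested genes 1.66% were called in either direction. SNRNP40 fell from 35.0, 30.3 and 20.1 TPM in the scrambled libraries to 11.5, 8.55 and 9.09 TPM in MYH7B ASO replicates 2 to 4, a log2 fold change of -1.43 (limma adjusted p = 0.0231). The call held with all 7 libraries (limma adjusted p = 0.0183) and, of the 6 fits that left out a library, in the one without scrambled ASO replicate 3 only.

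The kinases and the importer of SR proteins formed a list of 8 genes with a median log2 fold change of -0.45. None was called, against 1.66% of all tested genes. SRPK2, TNPO3, SRPK1 and SRPK3 were lower without overlap, 4 of 8 against 14.1% of all tested genes; they are named after their values were seen. SRPK1 and SRPK2 phosphorylate RS domains and TNPO3 imports RS-domain proteins into the nucleus. TNPO3 was at 16.9, 14.7 and 15.6 TPM in the scrambled libraries and at 9.92, 11.3 and 10.54 TPM in MYH7B ASO replicates 2 to 4. Its log2 fold change of -0.53 did not pass (limma adjusted p = 0.152), nor did -0.60 for SRPK2 (limma adjusted p = 0.137).

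Of 24 other splicing regulators 22 were tested, with a median log2 fold change of -0.03. None was called, against 1.66% of all tested genes. RBPMS2, a heart-enriched splicing regulator named here after its values were seen, was at 50.9, 48.9 and 56.9 TPM in the scrambled libraries and at 82.5, 79.3 and 76.5 TPM in MYH7B ASO replicates 2 to 4. The log2 fold change was 0.60 (limma adjusted p = 0.0698), and it passed with libraries rescaled by median ratios (limma adjusted p = 0.0274). Its value in the reordered replicate 1 was 55.7 TPM, inside the scrambled range.

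Transcripts that RBM20 is known to splice were examined for their total level. All 19 were tested, 4 were called lower and none higher, against 1.48% and 0.181% of all tested genes, and the median was -0.37. MYOM1, a protein of the sarcomere's M-band, fell from 127, 152 and 116 TPM to 77.2, 54.0 and 66.4 TPM, a log2 fold change of -0.996 (limma adjusted p = 0.0316). CACNA1C, the pore of the cardiac L-type calcium channel, fell from 23.8, 31.7 and 17.8 TPM to 11.9, 7.05 and 7.74 TPM, a log2 fold change of -1.36 (limma adjusted p = 0.0446). MLIP, a lamin-interacting protein of muscle, and NEXN, an actin-binding Z-disc protein, fell with log2 fold changes of -0.90 and -0.75 (limma adjusted p = 0.0351 and 0.0382), NEXN being named after its value was seen. Each of these 4 calls was lost in all 6 fits that left out a library, and 1 of the 19 was called with all 7 libraries. Rescaling by median ratios lost MYOM1, MLIP and CACNA1C (limma adjusted p = 0.0509, 0.0585 and 0.0607). Over the 19 alternative settings NEXN was called in 7, MYOM1 in 6, MLIP in 5 and CACNA1C in 4.

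Of 16 transcripts spliced by MBNL, CELF or QKI proteins 12 were tested, and ABLIM1 was the one called, against 1.66% of all tested genes. ABLIM1, an actin-binding LIM protein, fell from 124, 122 and 99.0 TPM in the scrambled libraries to 54.2, 43.4 and 51.7 TPM in MYH7B ASO replicates 2 to 4. The log2 fold change was -1.19 (limma adjusted p = 0.0109), and the call held in 5 of the 6 fits that left out a library. The median of the list was -0.34. Cardiomyocyte markers had a median of -0.33 with none of 11 called, and whether that shift has a part in the medians of these 2 lists was not tested.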

How the data were processed

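Poly-A RNA of 7 libraries was measured. The authors deposited TPM per gene, and each deposited column sums to 1000000, so depth is unknown and replicate spread is the only error given. The submitters' processing notes name GRCh38.p13 and DESeq2, and the quantifier is not given in the sources used here. The authors' deposited comparison table holds a mean normalized count (a signal), log2 fold changes that its name calls shrunken, their standard errors, a test score, p-values and adjusted p-values. No per-sample column was left unused (0).

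The column of MYH7B ASO replicate 1 holds 58721 values and then 1513 blanks. Its log2(TPM + 1) values correlated across genes with those of the other 6 at a median of 0.408 as deposited and 0.955 with the sorted identifiers of GENCODE 29, which lists 58721 genes. In that order its genes matched to the table sum to 995518 TPM, with no rescaling. It was left out of the main comparison.

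limma 3.58.1 in R 4.3.3 (lmFit, eBayes with trend) was run on log2(TPM + 1) for genes averaging 1 TPM or more, with Benjamini-Hochberg adjustment over all 15988. Fold changes on this scale understate low genes. The script was tested on simulated data. Ratios were tested with exact permutations in numpy 2.4.6. Spans are from GENCODE 29 on GRCh38 and promoter windows from RefSeq on GRCh38.p14.

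The members, lists and rules were chosen with earlier results of these data known. The text names all members, tested relatives, called genes of each list other than the cell type markers (at most 3 a direction, by size of change), MYH7B and the 3 genes most alike RBM20 and RBM24. Alternatives were other pseudocounts, filters, scalings, variance settings, replicate blocks, all 7 libraries and leaving out each library.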

Additional observations from a re-analysis of the deposited data

Results flagged for a closer look

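Among 17 measures in the MYH7B ASO group of 4 libraries (the levels of the 10 regulators and MYH7B, and the 6 log2 ratios), 4 had a library far from the other 3, measured as the gap to the nearest value over the whole range. Chance gives about 1 in 20 for a single measure, and these 17 are not independent. The flagged ratios hold RBM24 and PTBP1, whose own levels are the other flags. All 4 fell in the reordered MYH7B ASO replicate 1. It had 38.7 TPM of RBM24, against 105 to 113 TPM in the others, and 96.3 TPM of PTBP1, against 38.3 to 45.6 TPM. Its log2 ratio of RBM24 to RBM20 was 2.54, against 3.39 to 3.52. Its log2 ratio of PTBP2 to PTBP1 was -3.72, against -1.61 to -1.23.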

How the results depend on the processing

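No member was called under any of the 19 alternatives, whose lowest adjusted p for a member was 0.121, and RBM20, MBNL1, MBNL2, QKI and RBFOX2 kept log2 fold changes below 0 in all of them. At an unadjusted limma p under 0.05 the 5 members became 3 with median ratios, 2 with quantiles and 2 with no trend. All genes at that p, in either direction, numbered 2815, 2782 and 2321 there, against 2435 in the main fit. With the replicate block by title and description the members were 1 and 0, and leaving out a library gave 2 to 4. They stayed 5 with a pseudocount of 0.1, a minimum mean of 5 TPM and robust variance. Over all genes, 265 calls became 40 with no filter on low values, 150 with no intensity trend, 170 with 7 libraries and 53 (without MYH7B ASO replicate 4) to 149 when a library was left out. Quantile normalization called 55 higher and 202 lower against 29 and 236. Over the other splicing genes, 1 call became 2 with median ratios, quantiles or mitochondrially encoded genes removed, 0 with no filter or no trend, and 0 to 1 when a library was left out.

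The replicate numbers join 2 pairs by title (deviations correlated at 0.076 and 0.11) and 2 by description (-0.073 and -0.039), and no label says that a number is shared. With the replicate block by either number, or by title over 7 libraries (added after the data were seen), 0 genes were called and 0 splicing genes, against 1718, 1096 and 1773 genes at an unadjusted limma p under 0.05. In such fits only numbers found in both groups inform the change, and few libraries are left to measure spread. The absence of calls there therefore cannot tell whether pairing matters. RBM24 had -0.12, -0.078 and -0.46 under these 3 blocks, KHDRBS1 had -0.011 by description, RBM38 had 0.11 by title and 0.0095 over 7 libraries, and PTBP1 and PTBP2 had 0.19 and -0.13 over 7. The block by title gave MBNL1 a log2 fold change of -0.21, RBM24 to RBM20 a difference of 0.55 and MBNL1 to CELF1 one of -0.04.

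With 7 libraries and no block, RBM24, PTBP1 and PTBP2 had -0.33, 0.047 and -0.10, and the ratios MBNL1 to MBNL2 and PTBP2 to PTBP1 had -0.036 and -0.15. RBFOX1 to RBFOX2 was 0.20 with a pseudocount of 1. With median ratios, quantiles and mitochondrial genes removed CELF2 had 0.037, 0.065 and 0.0078, and RBM38 had 0.035 and 0.0048 in the first and last. Leaving out a library gave -0.11 to 0.14 for RBM24, -0.14 to 0.058 for CELF2, -0.23 to 0.0048 for CELF1, -0.04 to 0.31 for PTBP2, -0.70 to 0.25 for CELF4, -0.42 to 0.0096 for MBNL3 and -0.18 to 0.088 for RBM38. It gave -1.86 to 0.72 for RBFOX1 to RBFOX2, -0.14 to 0.22 for MBNL1 to MBNL2 and -0.60 to -0.17 for MBNL1 to CELF1. The cause of these moves was not tested. The depth of each library is unknown, so TPM values of low genes such as RBFOX1 have no counting error per library beside them. The authors' deposited table gives RBFOX1 a mean normalized count of 16.1.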
